A study of Mus musculus with 9 samples.

Results

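The genes described here are 10 genes of the p53 pathway, chosen by name as p53 itself (Trp53), its regulators and a set of its direct targets, and found by symbol among the 37980 mouse genes of the deposited table. They are Trp53, its inhibitors Mdm2 and Mdm4, and the target genes Ccng1, Trp53inp1, Phlda3, Zmat3, Sesn2, Eda2r and Bbc3. All 10 were in the table, and 9 of them were high enough to be tested. RNA was measured in 4 samples of NA MPs and 5 samples of WT MPs. MPs are myeloid progenitors, sorted from mouse bone marrow as lineage-negative, c-kit-positive and Sca1-negative cells. NA is the Nup98-Hoxa10hd fusion, in which part of the nuclear pore protein Nup98 is joined to the DNA-binding homeodomain of Hoxa10. All samples were of strain C57BL/6. NA MPs were Tdtomato+ cells from irradiated mice transplanted with multipotent progenitors (MPPs) that expressed the fusion from the Rosa26 locus after removal of a stop cassette by Cre under the blood-wide Vav promoter. WT MPs were CD45.2+ cells from irradiated mice that had received WT MPPs. Both kinds of recipient had also received helper bone marrow, and both were sorted at the same time, which the labels place at 3 months post-transplantation and the methods 1 month later. The sort marker thus differed between the groups and cannot be told apart from the fusion. Donor WT cells are described as CD45.1+ elsewhere in the study, so the origin of the WT MPs cannot be told. Neither source says whether a sample was a single mouse, so the p-values measure the spread between these samples.

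p53 is a transcription factor that is kept scarce by Mdm2, a ubiquitin ligase that marks it for degradation, and by the Mdm2-related protein Mdm4, which masks its activation domain. DNA damage, oncogene activity and other stresses free p53 mainly at the protein level, and it then switches on genes for cell cycle arrest, apoptosis, DNA repair and metabolism, with Mdm2 among them as a feedback. In haematopoiesis, p53 holds stem cells in quiescence and removes damaged progenitors.

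The table held 6602851 to 6734284 normalized reads per sample, from 5557701 to 8106138 counted reads, so 1 read was worth 0.827 to 1.20 and 3 reads, the smallest level read as present, 2.48 to 3.60. These limits cover counting error only. Nup98, part of which is in the fusion, had a mean of 956 ± 81.8 (SD, n = 4) in the NA samples against 599 ± 29.9 (SD, n = 5) in the WT samples. Hoxa10 averaged 129 ± 17.7 (SD, n = 4) and 8.05 ± 2.57 (SD, n = 5). Both were higher in every NA MP sample, as the labels have it. Mpo, which encodes the granule enzyme myeloperoxidase and marks myeloid progenitors, stood at 107675 ± 4469 (SD, n = 4) and 103947 ± 1780 (SD, n = 5). Markers of other cell types moved with the groups. Of all tested genes, 16.9% were called higher in NA MPs and 17.3% lower. Testing needed a value of 10 or more in 4 samples, so a marker could enter through 1 group alone. All 13 tested pro-B and pre-B cell markers were called higher in NA MPs, with summed levels of 1539 to 2735 against 392 to 430. Of 14 tested erythroid markers 13 were called lower, with sums of 5996 to 7602 against 11091 to 12318. Of 7 tested macrophage markers 6 were called higher and 1 lower (sums of 963 to 1340 against 734 to 806), of 9 neutrophil markers 4 higher and 2 lower (4149 to 6275 against 3628 to 4090), and of 8 mast cell and basophil markers 5 higher and 2 lower (5182 to 5981 against 4029 to 4264). Of 13 myeloid progenitor markers 5 were higher and 2 lower, of 6 tested megakaryocyte markers 1 higher and 2 lower, and of 4 tested mature B cell markers 1 of each. Of the T cell markers only Lck was tested, and it was higher, while Cd3e and Cd3g were at 0 in all 9 samples. In bulk samples, fewer cells of a type and less RNA per cell cannot be told apart, and the part of these markers in the results on p53 genes was not tested.

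p53 binds DNA as a tetramer at a pair of adjacent 10-base motifs, each of which reads 3 purines, C, 2 of A or T, G and 3 pyrimidines. The pair reads the same on both strands. The 300 bases around each RefSeq start (250 before it and 50 after, GRCm38.p6) were searched for the closest 20-base match, and 8 of the 10 genes had such a window, all but Trp53inp1 and Zmat3. The closest match of Ccng1 is shown because it was the best of the 8, those of Trp53, Mdm4 and Bbc3 because they came next, and that of Cdkn1a, the classical p53 target, for comparison. Capitals mark the positions that match the motif.

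Ccng1, chr11:40755462-40755481, minus strand, 195 bases before the start: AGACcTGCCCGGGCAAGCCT

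Trp53, chr11:69580284-69580303, plus strand, 75 bases before the start: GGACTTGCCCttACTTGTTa

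Mdm4, chr1:133025626-133025645, minus strand, 229 bases before a start: AGGtATGCTgtGGCAAGCCT

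Bbc3, chr7:16309486-16309505, plus strand, 97 bases before a start: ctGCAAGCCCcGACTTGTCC

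Cdkn1a, chr17:29090928-29090947, plus strand, 51 bases before the upstream start: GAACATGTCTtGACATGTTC

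Ccng1 and Cdkn1a matched at 19 of 20 positions, a match that 29 of the 27025 genes with a window reached or passed (0.107%). The matches of Trp53, Mdm4 and Bbc3 held 17 of 20 positions, which 7.20% of all genes with a window reached. Mdm2, Phlda3 and Sesn2 held 15 (79.2% of all genes) and Eda2r 14 (98.8%). The Cdkn1a match lies 2841 bases before the gene's other RefSeq start. With the 4 central bases of each motif held intact and at most 2 mismatches in all, 0 of the 8 genes had a match, against 51 of 27025 genes (0.189%). Ccng1 failed this rule because its mismatch is in a central base, while that of Cdkn1a is not, and Cdkn1a passed. The ranking by closest match was chosen after this stricter search. No match says only that these letters are not in these windows.

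**Figure D1:**
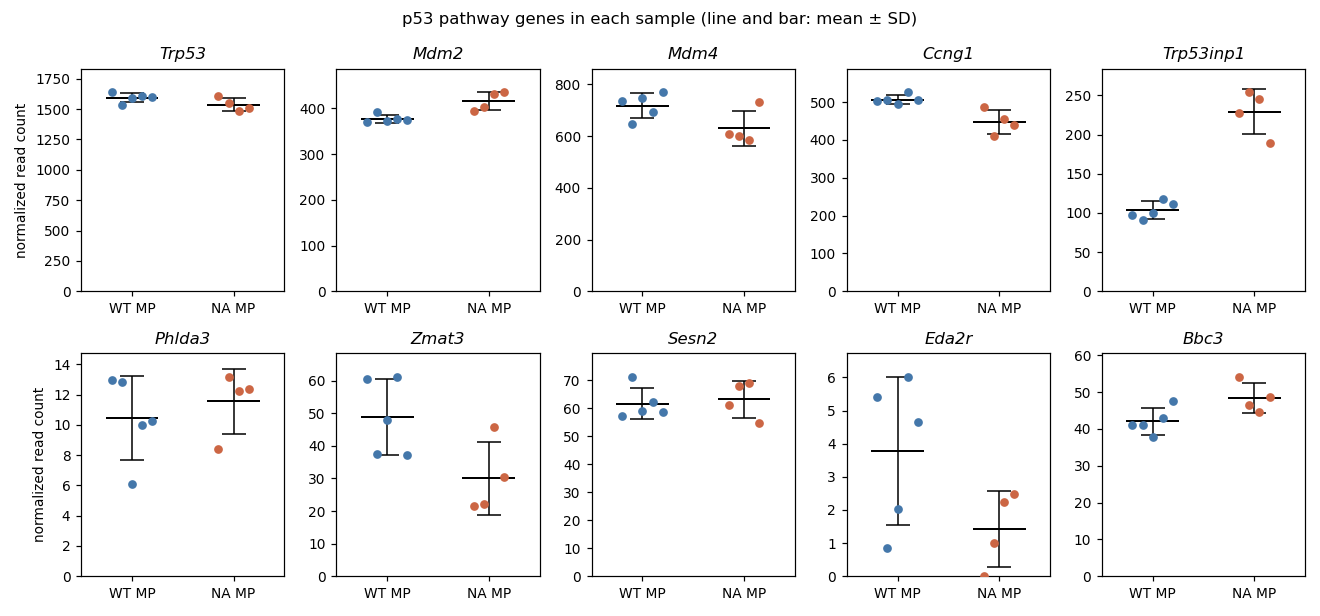
Normalized read count (vertical axis from 0, a scale for each gene) of the 10 p53 pathway genes in 5 WT MP samples (blue) and 4 NA MP samples (orange), with a long line for the mean and a bar for the SD. The NA MP samples lie above all WT MP samples for Trp53inp1 and Mdm2 and below them all for Ccng1, while the groups of the other 7 genes overlap.

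Of the 9 tested genes, 5 passed the comparison of NA MPs with WT MPs at an adjusted p under 0.05 by limma, against 34.3% of the 11987 genes tested in all. Trp53inp1 and Mdm2 were higher in NA MPs (16.9% of all tested genes were), and Ccng1, Mdm4 and Zmat3 were lower (17.3% of all were). Only Trp53inp1 among them changed at least 2-fold, as 4.07% of all tested genes did. The values of the groups did not overlap for 3 of the 10 genes, against 26.3% of all tested genes, with Trp53inp1 and Mdm2 above (13.5% of all) and Ccng1 below (12.8%). The median log2 difference of the 9 was 0.03, beside -0.0081 over all tested genes. The genes thus moved in both directions, and the targets of p53 among them did not move together.

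**Figure D2:**
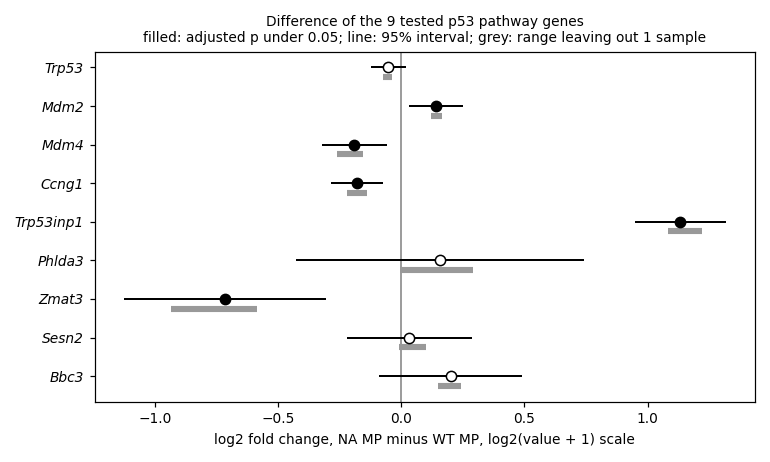
Log2 fold change of the 9 tested p53 pathway genes, NA MP minus WT MP on the log2(value + 1) scale (horizontal axis), with the 95% interval as a line and the range on leaving out each sample in turn as a grey bar. Filled points passed an adjusted p of 0.05, and the interval of Trp53inp1 (0.95 to 1.31) lies apart from those of all the others.

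Trp53 (ENSMUSG00000059552, chr11:69580359-69591873) encodes p53. Its normalized count was 1604, 1548, 1488 and 1506 in NA MP replicates 1 to 4. In WT MP replicates 1 to 5 it was 1637, 1532, 1587, 1610 and 1603. The ranges overlapped, and the spread within each group was small. The log2 fold change was -0.05 with a 95% interval from -0.12 to 0.013 (adjusted p = 0.221 by limma), so the interval reached a fall of 0.12 on the log2 scale and a rise of 0.013. The p53 protein was not measured.

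Mdm2 (ENSMUSG00000020184, chr10:117688875-117710758, minus strand), both the main inhibitor of p53 and its target, was 394, 403, 432 and 435 in NA MPs. It was 369, 392, 373, 376 and 376 in WT MPs. The lowest NA MP value stood just above the highest WT MP value. The means were 416 ± 20.5 (SD, n = 4) and 377 ± 8.71 (SD, n = 5), and the log2 fold change was 0.14 (SE 0.052, adjusted p = 0.0334 by limma). The call was lost without NA MP replicate 3 or 4 (adjusted p = 0.105 and 0.113) and without WT MP replicate 1, 3, 4 or 5 (adjusted p from 0.0534 to 0.0609 by limma), with the direction kept.

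Mdm4 (ENSMUSG00000054387, chr1:132959484-133030561, minus strand), the other inhibitor, was 610, 599, 583 and 730 in NA MPs. In WT MPs it was 736, 647, 747, 692 and 769. NA MP replicates 1 to 3 lay below every WT MP sample, and replicate 4 lay among them. The log2 fold change was -0.19 (SE 0.061, adjusted p = 0.0197 by limma). Without NA MP replicate 4 it was -0.26 (adjusted p = 5.28e-05), and the call was lost without NA MP replicate 1, 2 or 3 or WT MP replicate 1 or 3 (adjusted p from 0.0553 to 0.0768 by limma). The count of Mdm4 is uncertain, because its pseudogene Mdm4-ps was listed at 144 to 174 in NA MPs and 156 to 178 in WT MPs, and how reads were divided between the 2 is not given in the sources used here. The sum of both was 742 to 903 in NA MPs and 817 to 947 in WT MPs (p = 0.0794, exact two-sided permutation test). On correcting for GC content and length, the log2 fold change of Mdm4 was -0.11 and the call was lost (adjusted p = 0.0936 by limma). Both differences were thus small, and neither call held under every setting.

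Trp53inp1 (ENSMUSG00000028211, chr4:11156431-11174379) encodes a stress-induced nuclear protein that takes part in p53 phosphorylation and in autophagy. It was 228, 254, 245 and 189 in NA MPs. The WT MPs had 97.1, 91.5, 99.8, 118 and 112. Every NA MP sample stood well above every WT MP sample. The means of 229 ± 28.6 (SD, n = 4) and 104 ± 10.9 (SD, n = 5) differed 2.21-fold, with a log2 fold change of 1.13 (SE 0.090, adjusted p = 6.44e-14 by limma) that ran from 1.08 to 1.22 on leaving out each sample. Its p by exact two-sided permutation test was 0.0159, the smallest that 4 samples against 5 can give. Mdm2 and Ccng1 had the same unadjusted p by this test. Mdm4 and Zmat3, both called lower by limma, had 0.0635 by it, and Bbc3, not called by limma, had 0.0476. Trp53, Phlda3 and Sesn2 had 0.127, 0.556 and 0.730 by the permutation test. The change of Trp53inp1 was the largest among the 9 tested genes.

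Ccng1 (ENSMUSG00000020326, chr11:40748552-40755311, minus strand), cyclin G1, which brings a phosphatase to Mdm2 and carries the close p53 motif match printed above, was 487, 409, 454 and 440 in NA MPs. It was 502, 505, 494, 525 and 505 in WT MPs. All NA MP values lay below all WT MP values, by a small margin for replicate 1. The means were 448 ± 32.4 (SD, n = 4) and 506 ± 11.5 (SD, n = 5), and the log2 fold change was -0.18 (SE 0.050, adjusted p = 0.00447 by limma). It stayed between -0.22 and -0.14 on leaving out each sample.

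Zmat3 (ENSMUSG00000027663, chr3:32334792-32366014, minus strand), which encodes an RNA-binding zinc finger protein, was 21.6, 22.2, 45.6 and 30.6 in NA MPs. Values in WT MPs were 60.4, 37.6, 47.9, 61.0 and 37.3. NA MP replicates 1, 2 and 4 lay below all WT MPs and replicate 3 among them. The log2 fold change was -0.72 (SE 0.20, adjusted p = 0.00554 by limma), a ratio of means of 0.614. Trp53inp1 and Zmat3, both described as direct targets of p53, thus changed in opposite directions.

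Bbc3 (ENSMUSG00000002083, chr7:16308393-16318205) encodes Puma, a BH3-only protein that starts apoptosis. It was 54.0, 46.5, 44.5 and 48.8 in NA MPs. In WT MPs it was 41.0, 41.1, 37.7, 43.0 and 47.5. The groups overlapped through WT MP replicate 5, and the log2 difference of 0.20 (95% interval -0.085 to 0.49) did not pass the test (adjusted p = 0.293 by limma).

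Sesn2 (ENSMUSG00000028893, chr4:132492032-132510501, minus strand), a stress-responsive inhibitor of mTORC1, ranged from 54.6 to 69.0 in NA MPs and from 57.2 to 71.0 in WT MPs. Its log2 difference of 0.03 (95% interval -0.22 to 0.28, adjusted p = 0.867 by limma) changed sign under several settings. Phlda3 (ENSMUSG00000041801, chr1:135766119-135769136), which competes with Akt for membrane lipids, was low, at 8.40 to 13.1 in NA MPs and 6.11 to 12.9 in WT MPs. Its log2 difference was 0.16, with a wide 95% interval from -0.42 to 0.74 (adjusted p = 0.718 by limma), so changes within that interval cannot be told apart in these samples. Eda2r (ENSMUSG00000034457, chrX:97333840-97377216, minus strand), a receptor of the TNF receptor family, was too low to test. It had 6 reads in all in NA MPs, in 3 of 4 samples, none above 3 reads. It had 19 reads in WT MPs, in all 5 samples, with 5, 6 and 5 reads in replicates 1, 4 and 5. The difference between the groups was not detectable at this depth (p = 0.143, exact two-sided permutation test on the normalized counts).

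Levels of different genes were compared as the normalized count per kilobase of exon. In WT MPs Trp53 led with 394 ± 9.68 (SD, n = 5), followed by Ccng1 at 144 ± 3.29, Mdm2 at 74.2 ± 1.71 and Mdm4 at 48.5 ± 3.28, with no overlap between neighbours. Bbc3 (19.8 ± 1.70), Sesn2 (17.7 ± 1.60) and Trp53inp1 (16.0 ± 1.69) came next, and the samples of neighbours among these 3 overlapped. Phlda3 (6.69 ± 1.79) and Zmat3 (4.27 ± 1.02) overlapped as well, and Eda2r stood last at 0.643. In NA MPs the order was the same but for Trp53inp1, which moved up 2 places to 35.4 ± 4.41 (SD, n = 4) per kilobase, above Bbc3 at 22.8 ± 1.93, with no overlap between neighbours anywhere in the order above Eda2r. Trp53 thus stood first and Eda2r last in both groups, and the targets of p53 covered a wide range between them.

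The other genes of the pathway were taken from 6 lists of 98 genes, of which 86 were tested. Of these 34 differed by limma, 16 higher and 18 lower in NA MPs, with a median log2 difference of -0.03. Over all tested genes the shares were 34.3% in either direction, 16.9% higher and 17.3% lower, so these counts, pooled over the lists, were near the background. Of the 86 genes, 7 were called with a change of at least 2-fold, against 4.07% of all tested genes. Plk2 and Gls2, among these 7, were tested through 1 group alone. Of 19 tested activators of p53, 2 were higher and 7 lower (median -0.09). The kinase Chek2, which phosphorylates p53 after DNA breaks, averaged 185 ± 11.2 (SD, n = 4) in NA MPs, below the 229 ± 11.7 (SD, n = 5) of WT MPs, with a log2 fold change of -0.31 (adjusted p = 0.000532 by limma). The deubiquitinase Usp10, which stabilizes p53, was lower by a similar amount (log2 fold change -0.31, adjusted p = 2.97e-07), and the kinase Hipk2 by less (-0.24, adjusted p = 0.0102 by limma). The acetyltransferase Ep300 (-0.14) and the break sensor Rad50 (-0.13) were among the other genes called lower, and the call of Rad50 was lost without NA MP replicate 3 (adjusted p = 0.105) and on correcting for GC content and length (adjusted p = 0.0905 by limma). Ppp1r13b, which encodes the p53 cofactor Aspp1, moved the other way, from 162 ± 9.87 (SD, n = 5) in WT MPs to 230 ± 19.04 (SD, n = 4) in NA MPs (log2 fold change 0.50, adjusted p = 7.45e-07 by limma).

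Of 15 tested genes listed as restraints of p53, 4 were lower (median -0.05), not far from the 17.3% of all tested genes that were lower. The list includes Mdm1 and Trp53rkb, whose place as restraints is uncertain, and neither was called. The 4 were the methyltransferase Kmt5a (log2 fold change -0.16, adjusted p = 0.000222), the ubiquitin ligase Cop1 (-0.14, adjusted p = 0.0317), the nuclear exporter Xpo1 (-0.13, adjusted p = 0.00522) and the deubiquitinase Usp7 (-0.09, adjusted p = 0.0242 by limma), the last of which also acts on p53 itself. Trim28, which had the highest counts of the list, had a log2 difference of 0.04 (adjusted p = 0.262 by limma). Corrected for GC content and length, the calls of Cop1, Xpo1 and Usp7 were lost (adjusted p = 0.601, 0.113 and 0.365 by limma). Cop1 was also lost without NA MP replicate 1, 2 or 4 or WT MP replicate 1, 3 or 4 (adjusted p from 0.0567 to 0.105), and Usp7 without NA MP replicate 2 or 3 or WT MP replicate 2 or 5 (adjusted p from 0.0615 to 0.0748 by limma). The changes were small in both lists. The counts of Ep300 and Usp10 are uncertain, since each shares exons with another gene on the same strand. Cdkn2a, whose Arf product blocks Mdm2, had 2 reads in all NA MPs and 1 read in all WT MPs. Trp63 had no read in any sample and Trp73 had 1, so the relatives of p53 were at or under the limit of 3 reads.

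**Figure D3:**
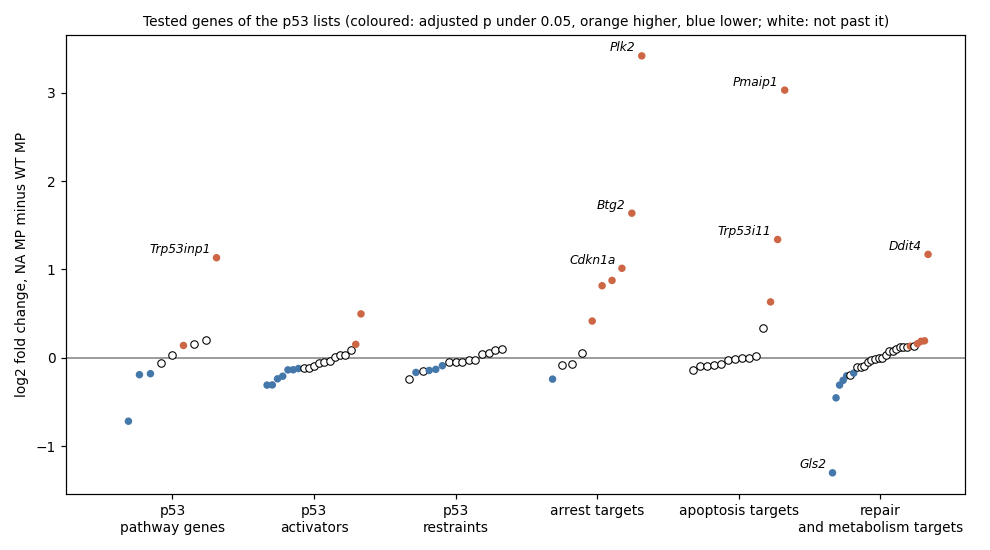
Log2 fold change of each tested gene, NA MP minus WT MP on the log2(value + 1) scale (vertical axis), for the p53 pathway genes and 5 other p53 lists, ordered by value within a list. Orange points were called higher and blue points lower at an adjusted p under 0.05, white points were not called, and Plk2 (3.42) and Pmaip1 (3.03) stand highest. The plotted value of Plk2 depends on the pseudocount.

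Among 10 tested genes of cell cycle arrest, of 14 in the table, 6 were higher and 1 lower in NA MPs (median 0.62, which stays the same with Plk2 at its lower bound). Of all tested genes, 16.9% were higher and 17.3% lower. Cdkn1a, which encodes the cyclin-dependent kinase inhibitor p21 and carries the close motif match printed above, was 81.6, 82.9, 132 and 121 in NA MPs. In WT MPs it was 43.2, 42.8, 60.1, 48.0 and 58.7. The groups did not overlap, and the log2 fold change was 1.01 (SE 0.14, adjusted p = 6.72e-07 by limma). The polo-like kinase gene Plk2 was 12.004, 11.1, 52.3 and 33.9 in NA MPs, while all 5 WT MPs had at most 2 reads. It was at least 9.32-fold higher in NA MPs, taking the WT MP level as 3 reads in each sample. It was tested only because of its level in NA MPs, and it is 1 of the 6 counted as higher. Btg2, an antiproliferative gene, was 425, 276, 707 and 724 against 107, 157, 143, 234 and 179 (log2 fold change 1.64, SE 0.35, adjusted p = 0.00927 by limma). Plk3 was 30.0, 23.3, 40.1 and 69.4 against 19.4, 19.7, 23.4, 12.01 and 28.9, with overlap (log2 fold change 0.88, adjusted p = 0.0207 by limma). The call of Plk3 was lost without NA MP replicate 3 or 4 or WT MP replicate 1 or 2 (adjusted p from 0.0562 to 0.0651 by limma), and without NA MP replicate 4 its log2 fold change was 0.58. The call was also lost on correcting for GC content and length (adjusted p = 0.0530) and with quantile normalization (adjusted p = 0.0580 by limma). Gtse1, which holds p53 back in the G2 phase, was the gene called lower (-0.24, adjusted p = 0.00515 by limma). It also had a motif match under the strict rule, as did Cdkn1a and Zfp365 of the 13 arrest genes with a window, against 0.189% of all genes with a window. No gene with a window in the other p53 lists had such a match, and Zfp365 was too low to test.

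Of 14 tested apoptosis genes 3 were higher (median -0.0035), near the 16.9% of all tested genes that were higher. Pmaip1, which encodes the BH3-only protein Noxa, was 148, 130, 257 and 247 in NA MPs. The WT MPs had 15.1, 19.7, 19.4, 30.0 and 29.8. The lowest NA MP value was several times the highest WT MP value, and the log2 fold change was 3.03 (SE 0.28, adjusted p = 2.62e-05 by limma). Of these 2 BH3-only genes, Pmaip1 thus passed the test and Bbc3 did not. Trp53i11 was 132 ± 24.5 (SD, n = 4) against 51.2 ± 7.54 (SD, n = 5), a log2 fold change of 1.34 (adjusted p = 9.07e-12), and Trp53i13 was 73.8 ± 5.02 against 47.3 ± 3.25 (0.63, adjusted p = 7.39e-05 by limma). Apaf1, the scaffold of the apoptosome, had a log2 difference of -0.01 (adjusted p = 0.874), and the BH3-only gene Bid one of -0.09 (adjusted p = 0.104, and 0.0272 without NA MP replicate 2, by limma).

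Of 28 tested genes of repair and metabolism 5 were higher and 6 lower (median -0.0046), near the 16.9% and 17.3% of all tested genes. Ddit4, an inhibitor of mTORC1, was 90.0, 55.6, 107 and 80.2 in NA MPs. It was 35.6, 39.4, 29.5, 36.0 and 37.3 in WT MPs. The groups did not overlap (log2 fold change 1.17, SE 0.15, adjusted p = 2.55e-08 by limma). The mitochondrial glutaminase gene Gls2 moved the other way, at 9.60, 8.09, 7.79 and 9.09 against 32.4, 25.7, 18.3, 15.01 and 26.1 (log2 fold change -1.30, SE 0.25). It was tested only because of its level in WT MPs, so no p-value is given, and it is 1 of the 6 counted as lower. Lpin1, a phosphatidate phosphatase, had a log2 fold change of -0.45 (adjusted p = 4.40e-06), and the translesion polymerase gene Polh one of -0.31 (adjusted p = 0.00392 by limma). Gpx1, a glutathione peroxidase, and Tap1, a peptide transporter, which had the highest counts of the list, were slightly higher (0.13 and 0.19, adjusted p = 3.35e-05 and 8.79e-06 by limma). Gpx1 was 0.053 on correcting for GC content and length (adjusted p = 0.0363) and 0.075 with quantile normalization (adjusted p = 0.00974 by limma), and with the former and the replicate number as a block it was 0.047 and the call was lost (adjusted p = 0.125 by limma). Cdkn1a, Plk3, Trp53i13, Gls2, Bid and Tap1 share exon sequence with a neighbouring gene, and whether the counting used strand is not given in the sources used here, so their counts are uncertain.

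**Figure D4:**
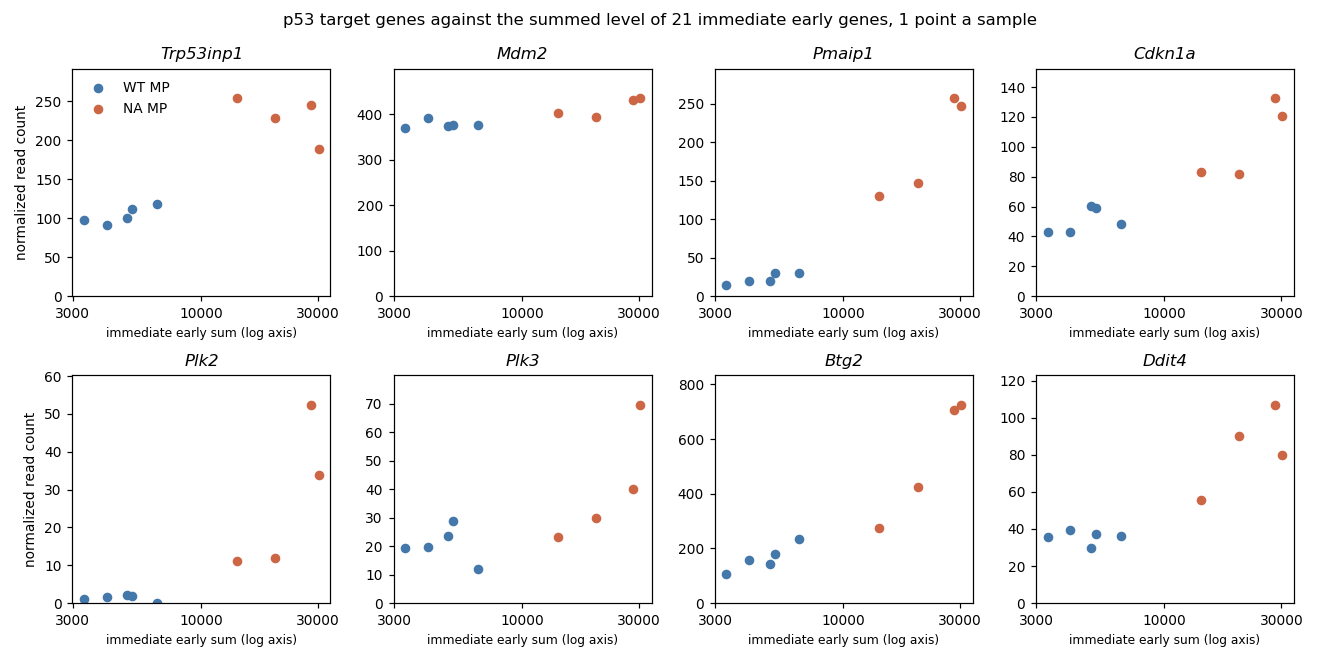
Normalized read count of 8 p53 target genes (vertical axes from 0) against the summed normalized count of 21 immediate early genes in the same sample (horizontal log axis), with 1 point for each of 5 WT MP samples (blue) and 4 NA MP samples (orange). The NA MP samples lie to the right of all WT MP samples in every panel, Btg2 and Plk3 are highest in the NA MP sample with the largest sum, and Trp53inp1 is lowest among NA MPs in that sample.

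Immediate early genes, such as Fos and Jun, are switched on within minutes by many stimuli, and moved with the groups. Of 17 tested genes of this list 14 were higher in NA MPs, against 16.9% of all tested genes. A gene could enter the test through the NA MPs alone. Their summed level was 20097, 14039, 28223 and 30259 in NA MP replicates 1 to 4. In WT MPs it was 3337, 4127, 5003, 6620 and 5243. No NA MP sample overlapped the WT MPs. Within NA MPs, Btg2 and Plk3 had the same order of samples as this sum, with replicate 2 lowest and replicate 4 highest, and Pmaip1, Cdkn1a and Plk2 were higher in replicates 3 and 4 than in replicates 1 and 2. Within WT MPs, Btg2 was highest and Plk3 lowest in replicate 4, which had the largest sum, and neither gene had the full order of the sum. Trp53inp1 did not have the order of the NA MPs, being lowest in replicate 4 and highest in replicate 2. Nor did Ddit4, which was lower in replicate 4 (80.2) than in replicate 1 (90.0). Mdm2 was higher in NA MP replicates 3 and 4 than in 1 and 2, like the sum, but among WT MPs it was highest in replicate 2. Of the remaining genes within WT MPs, Pmaip1 and Trp53inp1 were highest in replicate 4, Cdkn1a in replicate 3 and Ddit4 in replicate 2. Plk2 had at most 2 reads in any WT MP sample and 0 in replicate 4. The part of immediate early activity in the levels of these genes was not tested.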

How the data were processed

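Total RNA of each sorted sample was extracted, made into libraries with the Illumina TruSeq RNA kit and sequenced. Per the labels, the submitters' processing notes name bcl2fastq, RSEM and DESeq2 and the build mm10. The versions, the annotation and the use of strand are not given in the sources used here. The deposited table is named as raw counts, but its values are a normalized signal. Between 97.4% and 97.7% of the values up to 1000 reads were whole multiples (within 0.01 reads) of a constant for each sample, and these constants were within -0.26% to 0.03% of median-of-ratios size factors. The authors thus appear to have divided RSEM's expected counts by size factors, and the count tests first planned were replaced by limma 3.58.1 in R 4.3.3 (trend and robust options) on log2(value + 1). A fold change on this scale understates the change of low genes. Genes at 10 or more in at least 4 samples were tested (11987), with Benjamini-Hochberg adjustment over all of them and a threshold of 0.05. The fit was also run on simulated data, whose planted changes were larger and less variable than many reported here. For a single value, all ways to divide the 9 samples into 4 and 5 were enumerated (exact two-sided permutation test, scipy 1.17.1).

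Gene symbols were matched for 32916 of 37980 identifiers, and positions, exon lengths and overlaps came from GENCODE M21 (GRCm38). Promoter windows came from RefSeq (GRCm38.p6). A wider search was planned, but no genome sequence was used here, so windows of 300 bases were searched, and the ranking by closest match was chosen after the strict rule had found none of the 10 genes.

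The 10 genes and all gene lists were chosen with earlier results of these data known. Named are all 10 genes, Nup98, Hoxa10, Cdkn1a, Cdkn2a, Trp63 and Trp73, and in each other p53 list the 4 called genes with the largest change and the 2 with the highest counts. Ptprv and Pvt1 of the arrest list were not analysed here. Replicate numbers 1 to 4 occur in both groups.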

Additional observations from a re-analysis of the deposited data

Results flagged for a closer look

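For 7 of 77 sets of values (each gene named from the p53 lists in each group), 1 sample lay apart from the rest by Dixon's criterion at 95%, where chance gives about 3.85. Kmt5a was 1349 in WT MP replicate 1, above the other WT MPs. Cop1 was 522 in NA MP replicate 3, above the other NA MPs. Trp53i13 was 81.3 in NA MP replicate 3 and 52.98 in WT MP replicate 3, each the highest of its group. Gpx1 was 7456 in NA MP replicate 2, above the other NA MPs. Cdkn2a was 0.856 in WT MP replicate 2 and Trp73 was 1.08 in WT MP replicate 1, each a single read where all other WT MPs had none. A set with a single read in 1 sample and none elsewhere is bound to be flagged, so the number expected by chance does not hold for such sets. None of the flagged genes is among the 10 described first.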

How the results depend on the processing

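Of the 10 p53 pathway genes, 5 passed the test. The number was 3 at an adjusted p under 0.01, 3 without the mean-variance trend, and from 3 to 5 on leaving out each sample, with the lowest number without NA MP replicate 3, WT MP replicate 1 or WT MP replicate 3. Trp53inp1 and Ccng1 passed 0.05 under all 23 alternatives. Without the trend, Zmat3 failed (adjusted p = 0.0617), as did Mdm4, Hipk2, Rad50, Cop1, Xpo1, Usp7, Plk3 and Polh (adjusted p from 0.0578 to 0.130 by limma). Mdm2 failed in 11 of 23 alternatives, with library size only (adjusted p = 0.0568) and no filter (adjusted p = 0.0602 by limma) among them, and Mdm4 in 9, with GC and length corrected among them (-0.11, and -0.098 with the block). The cause was not tested. Over all genes the number of calls was 3625 to 3937 on leaving out each sample, and 28 to 32 over the other p53 genes. The replicate number did not pair the samples (correlations of deviations from -0.0204 to 0.0573 for equal numbers), and with it as a block 3664 genes passed, against 3689 for the same samples without the block, and 4 of the 10 genes in either fit. Signs reversed for 4 genes that never passed. On leaving out each sample, Phlda3 ran from -0.0044 (without WT MP replicate 3) to 0.29, Sesn2 from -0.011 to 0.10, and Apaf1 from -0.039 to 0.010 (without WT MP replicate 5). Sesn2 was -0.045 with the GC and length correction, -0.056 with it and the block, and -0.046 with quantile normalization. Trim28 was -0.042, -0.040 and -0.019 under those 3 settings. Apaf1 was 0.046, 0.063 and 0.0034 under them, 0.010 with the block, and 0.010 for replicates 1 to 4 without it. Other pseudocounts (0.5 and 4), quantile normalization and the fit without trend were added after seeing the data. The planned count tests, TMM factors and unrounded counts were not run, as the deposited values are normalized. Counts recovered from them by the constant of each sample were not tested. Eda2r was too low to test at this depth.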
